A study of Mus musculus with 14 samples.

Results

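The 10 genes described here encode the core of the mammalian circadian clock: Arntl, Clock, Per1, Per2, Per3, Cry1, Cry2, Nr1d1, Nr1d2 and Bhlhe40. They were taken by gene symbol from the deposited count table of 55416 gene identifiers. All 10 were found, and all 10 were among the 18430 genes with enough counts to be tested.

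BMAL1, the product of Arntl, pairs with CLOCK and switches on genes that carry E-box sequences. Among those genes are the Per and Cry genes, whose proteins return to the nucleus and block the pair, and Nr1d1 and Nr1d2, whose REV-ERB proteins repress Arntl through ROR elements. In pluripotent stem cells the clock genes are transcribed, but daily oscillation is known to appear only as cells differentiate.

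The study sequenced total RNA from 3 mouse stem cell lines treated for 12 h with 50 µM STM2457 or with the solvent DMSO. STM2457 inhibits METTL3, the enzyme that writes N6-methyladenosine on RNA. Epiblast stem cells (EpiSC, genotype XmolXmus-ΔTsix) gave 2 STM2457 and 2 DMSO libraries. Trophoblast stem cells (TSC, labelled wild type, from the trophectoderm) also gave 2 and 2. Extraembryonic endoderm cells (XEN, labelled wild type) gave 3 and 3. All lines are hybrids of Mus molossinus and Mus musculus. EpiSC grew with Fgf2 and Activin A in serum replacement, TSC with Fgf4 in medium conditioned by embryonic fibroblasts, and XEN in serum medium, so line, genotype and medium cannot be told apart. Each arm was harvested at 1 time after treatment, so the level of a gene is given here and not its phase. The labels do not say that libraries of a group came from separate cultures. The p-values therefore measure the spread between these libraries, which may be technical.

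Total counts per library were 18640099 to 21097380 for EpiSC, 17909934 to 20354242 for TSC and 6826496 to 10024628 for XEN. The XEN libraries stood apart in composition. The 2 mitochondrial rRNA genes took 12.0% to 16.0% of counts in XEN with STM2457 and 14.6% to 15.4% with DMSO, against at most 0.0505% in any EpiSC or TSC library. Replicates also differed more in XEN, with a chi-square per degree of freedom of 10.3 to 26.8, against 2.25 to 5.32 in the other lines. In any comparison with XEN, the line cannot be told apart from these differences in depth, composition and spread between libraries. The summed level of 5 epiblast markers was 806 to 901 CPM in EpiSC with STM2457 and 972 to 1022 CPM with DMSO. Its members differed: Pou5f1 averaged 558 CPM with STM2457 and 728 CPM with DMSO, and Fgf5 83.0 CPM with STM2457 and 49.3 CPM with DMSO. The summed level of 5 trophoblast markers in TSC was 1524 to 1548 CPM with STM2457 and 1466 to 1519 CPM with DMSO. Its members also differed: Cdx2 averaged 92.6 CPM with STM2457 and 72.0 CPM with DMSO, and Esrrb 602 and 546 CPM. Eomes was likewise higher with STM2457, at 370 and 337 CPM. Tfap2c, at 315 and 369 CPM, and Elf5, at 156 and 168 CPM, were lower. The same 5 markers summed to 153 to 163 CPM in EpiSC with DMSO. The summed level of 6 endoderm markers in XEN was 2747 to 2988 CPM with STM2457 and 2633 to 2749 CPM with DMSO. Among them Sox7 was high in library 2 of both arms, at 78.0, 234 and 83.1 CPM with STM2457 and 63.9, 251 and 66.4 CPM with DMSO. Sox17 averaged 363 CPM with STM2457 and 278 CPM with DMSO. The part of this library difference in the XEN values was not tested. CPM here is a gene's count scaled to its library's TMM-adjusted total. In bulk libraries such as these, fewer cells of a type and less RNA per cell cannot be told apart.

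Promoter windows were searched for the regulatory letters of this loop. RefSeq windows (GRCm38.p6) of 300 bases around the start site, 12 in all, were matched for 8 of the 10 genes. Per2 and Bhlhe40 were not matched. Motifs were searched on both strands: the E-box CACGTG and its variant CACGTT, bound by BMAL1 and CLOCK, the D-box TTATGTAA, bound by DBP, TEF, HLF and the repressor NFIL3, the ROR core AGGTCA, bound by RORs and REV-ERBs, and the CRE TGACGTCA. No window of the 8 genes held the CRE. Matches not printed were a ROR core in Clock, a ROR core in Per1 and an E-box variant in Cry2. The sites below show the E-box, D-box and other ROR matches in genes whose levels are given next. They are written 5′ to 3′ on the strand of the gene, with the motif in capitals.

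Per1 E-box, chr11:69098771-69098800, plus strand: agcacccaagtcCACGTGcagggatgtgtg
Cry1 E-box, chr10:85185097-85185126, minus strand: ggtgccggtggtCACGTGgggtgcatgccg
Cry1 E-box variant, chr10:85185116-85185145, minus strand: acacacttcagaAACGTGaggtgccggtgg
Nr1d1 E-box variant, chr11:98775388-98775417, minus strand: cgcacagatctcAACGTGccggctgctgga
Per3 D-box, chr4:151044804-151044835, minus strand: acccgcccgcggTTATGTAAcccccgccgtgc
Per3 D-box, chr4:151044851-151044882, minus strand: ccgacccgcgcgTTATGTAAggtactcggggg
Arntl ROR core, chr7:113207530-113207559, plus strand: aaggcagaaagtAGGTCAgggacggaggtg
Nr1d2 ROR core, chr14:18239166-18239195, minus strand: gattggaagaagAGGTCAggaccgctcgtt

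Of all 32851 promoter windows of that length, 7.15% held the E-box, 4.68% its variant, 0.938% the D-box, 16.3% the ROR core and 1.79% the CRE. The matches are descriptions of letters, not of bound sites, and whether the clock genes held them more often than other genes was not tested.

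In DMSO the 3 lines carried different mixtures of clock transcripts. The levels below are CPM per kb of exon, which allows a rough comparison between genes. The length counts every base annotated as exon in any transcript of the gene. For Arntl it was 7523 bases, where the longest protein-coding transcript had 2976, and for Per2 5856 against 5833. The order of genes within a line can therefore change with the length used, and an order by transcript length was not made. Bhlhe40, the E-box repressor DEC1, was the most abundant of the 10 in every line, at 17.7 ± 0.472 in EpiSC, 30.3 ± 4.42 in TSC and 14.5 ± 5.43 in XEN (SD). Per2 was the least abundant in every line, at 0.828 ± 0.100, 0.251 ± 0.137 and 1.12 ± 0.118 in the same order of lines.

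Between these ends the order differed. In EpiSC it ran Cry1 (12.0 CPM per kb), Per1 (6.95), Cry2 (6.18), Nr1d2 (3.24), Arntl (1.77), Clock (1.48), Per3 (1.14) and Nr1d1 (1.00). The libraries of Per3 and Nr1d1, and of Nr1d1 and Per2, overlapped there, while the other neighbours did not. In TSC the order ran Per1 (16.3), Cry1 (8.19), Nr1d1 (5.81), Cry2 (4.73), Nr1d2 (2.76), Arntl (2.59), Clock (1.56) and Per3 (1.35), with no overlap between neighbours. In XEN it ran Nr1d2 (7.63), Clock (5.59), Arntl (5.47), Cry1 (5.05), Per1 (4.58), Cry2 (3.86), Per3 (2.26) and Nr1d1 (1.99). Neighbours from Nr1d2 down to Cry2 overlapped in XEN, as did Per3 and Nr1d1, so the middle of that order is not resolved.

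**Figure D1:**
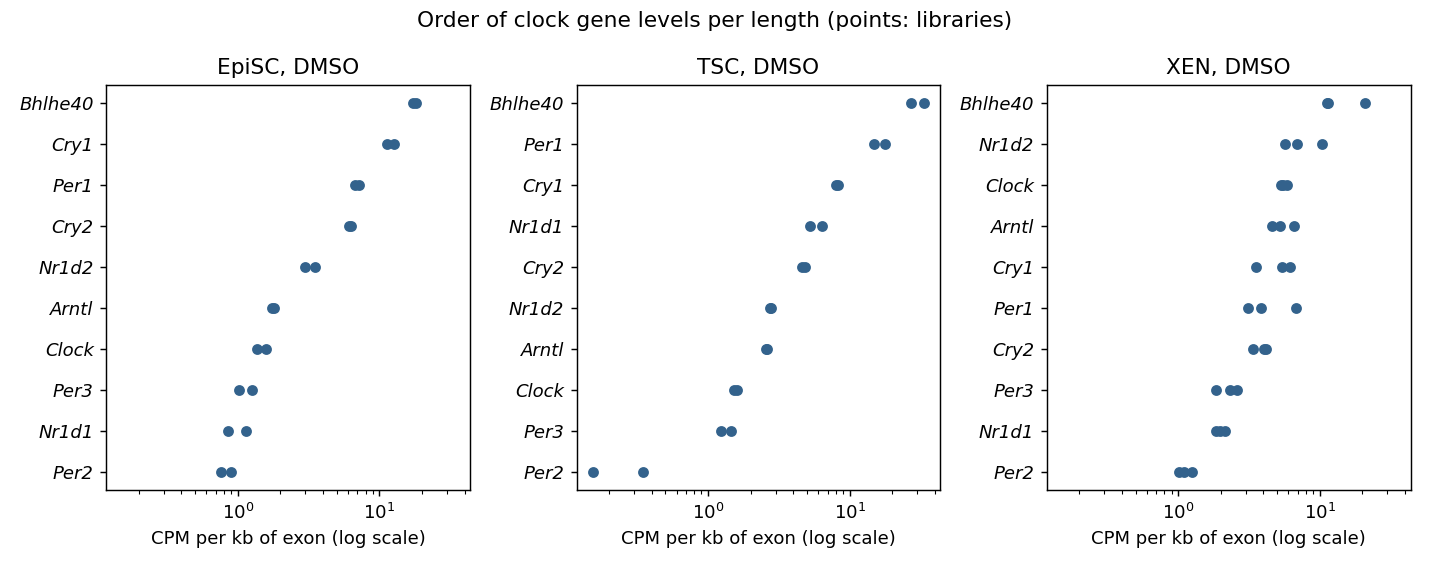
Level of each clock gene in each DMSO library, in CPM per kb of exon on a log axis, with genes ordered by their mean within a line. Bhlhe40 stands at the top and Per2 at the bottom in all 3 lines, and neighbours among the 6 genes of XEN from Nr1d2 to Cry2 overlap.

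The activators Arntl and Clock were lower in both EpiSC and TSC than in XEN. In DMSO, Clock stood at 18.9 and 21.8 CPM in EpiSC and at 22.0 and 20.8 CPM in TSC, against 73.6, 75.8 and 81.0 CPM in XEN. The log2 fold change was −1.92 ± 0.123 for EpiSC over XEN (SE; edgeR quasi-likelihood, adjusted p = 5.5e-10) and −1.85 ± 0.123 for TSC over XEN (adjusted p = 8.2e-10). EpiSC and TSC overlapped. Arntl stood at 13.5 and 13.2 CPM in EpiSC, 19.2 and 19.7 CPM in TSC and 39.5, 49.4 and 34.6 CPM in XEN. All 3 lines were separate, and each difference passed the test, at −1.62 (EpiSC over XEN), −1.08 (TSC over XEN) and −0.55 (EpiSC over TSC, adjusted p = 0.012). The last was −0.25 with an adjusted p of 0.426 under scaling to 76 ribosomal protein genes.

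The Per genes, repressors of the activator pair, each had their own pattern. Per1 stood at 99.5 and 84.0 CPM in TSC, against 21.8, 38.1 and 17.6 CPM in XEN, a difference of 1.84 ± 0.295 (adjusted p = 0.00016). EpiSC lay at 40.7 and 37.6 CPM, lower than TSC by 1.23 ± 0.312 on the log2 scale (adjusted p = 0.0057), with no call against XEN (0.62, adjusted p = 0.087, and −0.24 under ribosomal scaling). Per2 stood at 2.04 and 0.904 CPM in TSC, where 2 libraries held 60 counts in all, against 5.95, 6.48 and 7.32 CPM in XEN (−2.16 ± 0.320, adjusted p = 1.4e-05). EpiSC, at 5.27 and 4.43 CPM, exceeded TSC by 1.71 ± 0.323 (adjusted p = 0.00025). Per3 was lower in both EpiSC (−0.99) and TSC (−0.74) than in XEN.

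The cryptochromes, which complete the repressor complex, were higher in EpiSC than in TSC. Cry1 stood at 38.0 and 42.0 CPM in EpiSC, against 26.8 and 27.9 CPM in TSC (0.55 ± 0.174, adjusted p = 0.013). Cry2 stood at 39.6 and 38.5 CPM in EpiSC, against 30.4 and 29.4 CPM in TSC (0.38 ± 0.140, adjusted p = 0.028). Both also exceeded XEN in EpiSC, by 1.26 and 0.68, and Cry1 in TSC, by 0.71. These differences from XEN depend on the scaling. With ribosomal scaling Cry2 became −0.13 in EpiSC and −0.81 in TSC, and Cry1 became −0.40 in TSC, because that scaling moved the median of all genes by −0.75 (EpiSC over XEN) and −1.05 (TSC over XEN).

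Nr1d1, which encodes REV-ERB alpha, had the largest difference of the 10 genes between EpiSC and TSC. Nr1d1 stood at 2.63 and 3.54 CPM in EpiSC, against 19.7 and 16.1 CPM in TSC, a 5.77-fold lower level in EpiSC (−2.53 ± 0.214, adjusted p = 3.0e-08). XEN lay between, at 6.11, 5.67 and 6.59 CPM. Nr1d2, its paralog, showed another order, with 16.1 and 18.9 CPM in EpiSC and 14.8 and 15.1 CPM in TSC, against 37.3, 30.6 and 55.9 CPM in XEN. Its EpiSC and TSC libraries did not overlap, but the difference of 0.23 did not pass the test (adjusted p = 0.48). Exons of Nr1d1 share 263 bases, 8.55% of its exon length, with Thra on the other strand. Whether the counting used strand is not stated in the labels or notes, so reads from that stretch may belong to either gene.

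Bhlhe40 was lower in EpiSC, at 81.7 and 84.8 CPM, than in TSC, at 157 and 128 CPM (−0.78 ± 0.258, adjusted p = 0.022). TSC over XEN was 1.07 ± 0.236 (adjusted p = 0.0014), a direction that turned to −0.08 under ribosomal scaling. In all, 9 of the 10 genes were called for TSC over XEN, where 72.5% of all tested genes were called. The count was 7 for EpiSC over XEN (71.7% of all genes) and 7 for EpiSC over TSC (54.4%). Ribosomal scaling gave 6, 6 and 4 called genes, where 75.7%, 73.1% and 51.0% of all genes were called. The counts for TSC over XEN and EpiSC over XEN each include a gene not called before. For TSC over XEN that gene was Cry2, now lower in TSC. Under that scaling Per1 and Nr1d1 no longer passed for TSC over XEN (0.70 and 0.47), where Cry1 and Bhlhe40 turned direction without passing. For EpiSC over XEN, Cry1 and Cry2 no longer passed (0.44 and −0.13). For EpiSC over TSC, Per1, Bhlhe40 and Arntl no longer did (−0.94, −0.49 and −0.25). Leaving out single libraries left 3 to 7 genes called for EpiSC over TSC.

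With STM2457 the clearest changes of the 10 genes were a higher Bhlhe40 in EpiSC and a lower Arntl in XEN. Averaged over the 3 lines, Bhlhe40 and Per2 were higher and Arntl was lower. In GRCm38 coordinates Bhlhe40 spans chr6:108660629-108666925 on the plus strand, Arntl chr7:113207465-113314126 on the plus strand and Per2 chr1:91415982-91459324 on the minus strand, and each count covers the exons of the whole gene. In the edgeR model over all libraries without a replicate block, the other 7 genes passed no STM2457 test at an adjusted p under 0.05. Other settings given below called some of them, among them Clock and Nr1d1 in XEN.

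**Figure D2:**
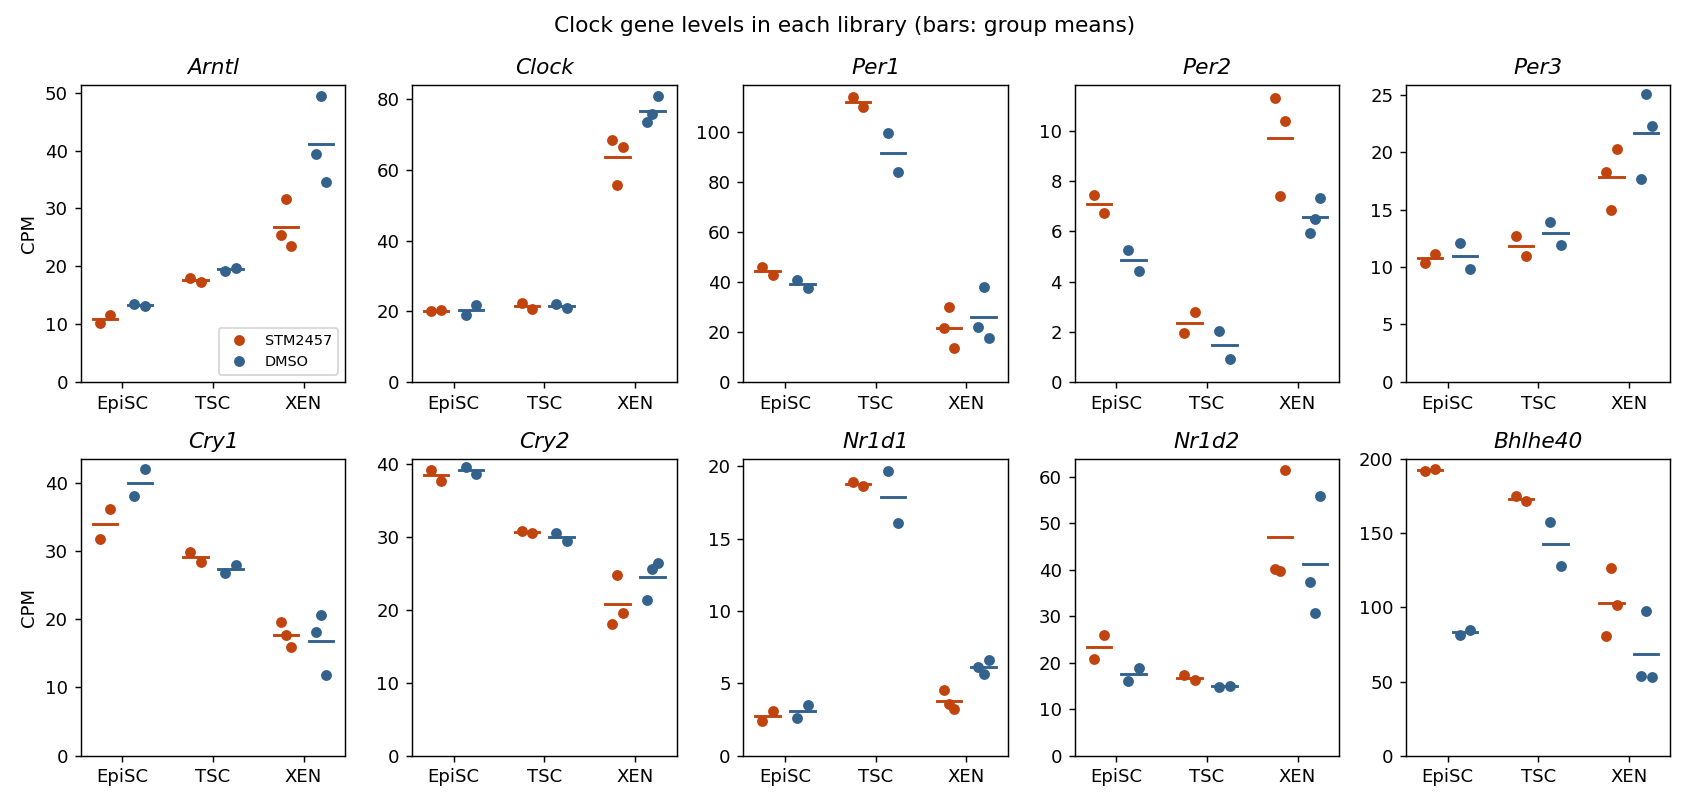
CPM of each clock gene in every library, with STM2457 (orange) left of DMSO (blue) within each line and bars at group means. Bhlhe40 in EpiSC and Arntl in XEN are separated between arms, and Arntl is lower with STM2457 in each line.

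In EpiSC, Bhlhe40 stood at 192 and 193 CPM with STM2457, against 81.7 and 84.8 CPM with DMSO. The arms were wide apart, and the means were 193 ± 0.696 and 83.2 ± 2.22 CPM (SD, n = 2 each). The fold change was 2.32, or 1.21 ± 0.259 on the log2 scale (adjusted p = 0.039). It was 1 gene of 10 called, against 1.68% of all tested genes. The call was lost without any 1 EpiSC or TSC library or without XEN STM2457 library 3. Over all libraries left out, the log2 fold change stayed between 1.19 and 1.23. The gene's spread is estimated over all lines, and the EpiSC libraries fitted alone gave the same size with an adjusted p of 5.55e-12. Ribosomal scaling ended the call too (1.34, adjusted p = 0.111).

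The rest of the EpiSC set moved less. Per2 stood at 7.46 and 6.75 CPM with STM2457, against 5.27 and 4.43 CPM with DMSO, and Nr1d2 at 20.7 and 26.0 CPM with STM2457, against 16.1 and 18.9 CPM with DMSO. Neither pair of arms overlapped, and neither difference passed (0.55 and 0.42, adjusted p = 0.37 and 0.47). Arntl stood at 10.2 and 11.6 CPM with STM2457, against 13.5 and 13.2 CPM with DMSO (−0.29, adjusted p = 0.48). Per1 (0.18) and Cry1 (−0.24) also had separate arms without a call. In total 4 genes were higher and 2 lower without overlap, where 29.6% and 26.5% of all tested genes were. Fitted on EpiSC alone 4 genes passed: Bhlhe40, Per2 (0.54, adjusted p = 0.021) and Nr1d2 higher, and Cry1 lower, in a fit that called 29.2% of all genes. With the replicate number as a block in all 3 lines 2 passed (13.2% of all genes), Bhlhe40 and Nr1d2 (0.41, adjusted p = 0.0137), although residuals of same-numbered EpiSC libraries did not correlate (−0.012). The median log2 fold change was −0.02 over the 10 genes and 0 over all genes. The 6 fibroblast markers summed to 77.5 to 78.7 CPM with STM2457 and 77.3 to 81.8 CPM with DMSO in EpiSC. Within that sum Col1a1 averaged 18.4 CPM with STM2457 and 27.1 CPM with DMSO, and Twist1 35.8 CPM with STM2457 and 27.5 CPM with DMSO. Their part in the EpiSC values was not tested.

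In TSC, edgeR called 0 of the 10 genes (0.966% of all genes), as did DESeq2 (7.55% of all genes), and 0 reached an unadjusted p under 0.05 (13.4% of all genes). Bhlhe40 stood at 175 and 171 CPM with STM2457, against 157 and 128 CPM with DMSO (0.28 ± 0.255, adjusted p = 0.71). Per1 stood at 114 and 110 CPM with STM2457, against 99.5 and 84.0 CPM with DMSO (0.29, adjusted p = 0.76). Both were higher in each STM2457 library. Fitted on TSC alone, both passed (adjusted p = 0.00617 for Bhlhe40 and 0.00362 for Per1), where 30.2% of all genes did. With the block in all lines Per1 alone passed (adjusted p = 0.039, where 11.0% of all genes passed). Without overlap 4 genes were higher and 1 lower, where 27.9% and 27.8% of all tested genes were. Arntl, at 18.0 and 17.3 CPM with STM2457, against 19.2 and 19.7 CPM with DMSO, was lower in each library by a small step (−0.14, adjusted p = 0.80). The fibroblast markers in TSC summed to 20.2 to 23.0 CPM with STM2457 and 15.7 to 16.8 CPM with DMSO, and their part in these values was not tested.

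In XEN, Arntl stood at 25.4, 31.5 and 23.6 CPM with STM2457, against 39.5, 49.4 and 34.6 CPM with DMSO. Every STM2457 library lay under every DMSO library. The means were 26.8 ± 4.17 and 41.2 ± 7.52 CPM (SD, n = 3 each), and the log2 fold change was −0.61 ± 0.144 (adjusted p = 0.023). This was 1 of 10 genes called, against 4.15% of all tested genes. DESeq2 called 3 (12.4% of all genes), with Clock and Nr1d1 also lower. Leaving out STM2457 library 1 or 3 or DMSO library 2 ended the call (adjusted p = 0.0817, 0.0708 and 0.0604), as did ribosomal scaling (0.151) and fitting XEN alone (0.222). With the numbers of XEN libraries as a block in XEN, a setting chosen after seeing the data, the fold change was −0.61 with an adjusted p of 2.5e-05.

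Residuals of same-numbered XEN libraries correlated at 0.22, 0.38 and 0.34. The sample titles number the libraries but name no pairs, so pairing by number is inferred from these same libraries. Within the pairs, the log2 ratio of Arntl was −0.64, −0.65 and −0.56, the narrowest range of the 10 genes. Nr1d1, at 4.55, 3.58 and 3.25 CPM with STM2457, against 6.11, 5.67 and 6.59 CPM with DMSO, was lower in all pairs (−0.43, −0.66 and −1.02). In edgeR it did not pass without a block (−0.69 ± 0.219, adjusted p = 0.093) and passed with the replicate number as a block in all 3 lines (adjusted p = 0.032). DESeq2 called it without a block (−0.71, adjusted p = 0.043). Its antisense neighbour Thra had 16.8 ± 3.92 CPM with STM2457 and 14.5 ± 2.28 CPM with DMSO.

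Clock stood at 68.5, 55.8 and 66.7 CPM with STM2457, against 73.6, 75.8 and 81.0 CPM with DMSO (−0.27 ± 0.104, adjusted p = 0.17; 0.036 with the block in all lines). Bhlhe40 stood at 80.6, 127 and 102 CPM with STM2457, against 53.9, 97.8 and 53.2 CPM with DMSO. Its arms overlapped, because DMSO library 2 was high, but the STM2457 library was higher in each pair (0.58, 0.37 and 0.93). The fold change of 0.59 ± 0.219 had an adjusted p of 0.18, of 3.64e-05 with the block and of 0.0023 without DMSO library 2, where it was 0.94. With the block in all lines 4 genes passed in XEN (13.3% of all genes): Arntl, Clock and Nr1d1 lower, Bhlhe40 higher. In all 3 pairs 5 of the 10 genes were lower (Arntl, Clock, Per1, Cry2 and Nr1d1) and 3 higher (Per2, Nr1d2 and Bhlhe40), where 19.4% of all tested genes were lower and 19.2% higher. At an unadjusted p under 0.05 the fit without a block held 5 of the 10 genes, against 17.3% of all genes. Without overlap 1 gene was higher and 3 lower, where 8.36% and 7.03% of all tested genes were. With the block in XEN only, the shares of all genes called were 15.8% in XEN, 15.4% in TSC and 17.2% in EpiSC.

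**Figure D3:**
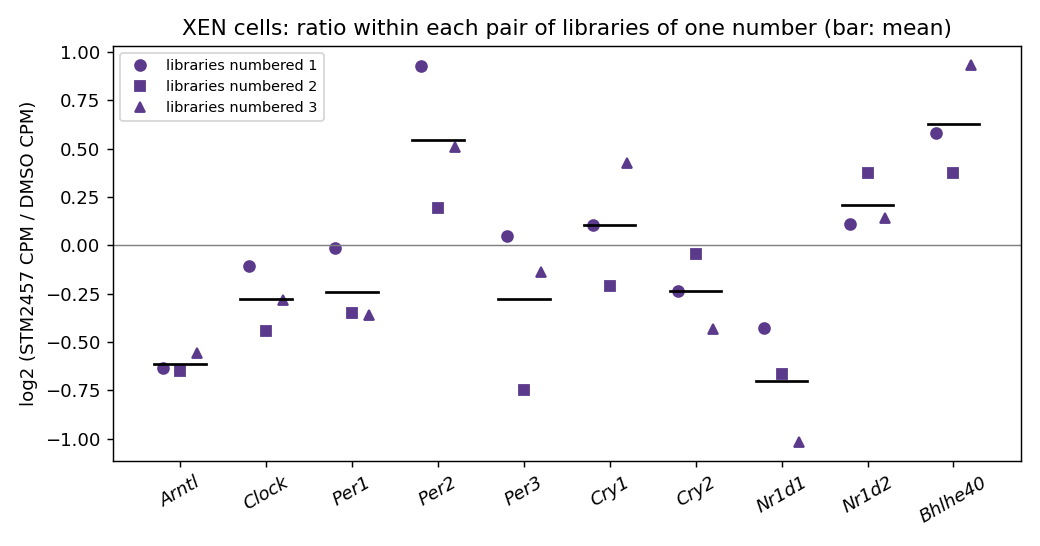
Log2 ratio of STM2457 over DMSO CPM within each XEN pair of libraries of one number, with bars at the mean of the 3 pairs. The 3 Arntl points lie together between −0.65 and −0.56, while Cry1 and Per3 have points on both sides of 0.

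Per2 stood at 11.3, 7.41 and 10.4 CPM with STM2457, against 5.95, 6.48 and 7.32 CPM with DMSO. The lowest STM2457 library lay just above the highest DMSO library, and the change of 0.56 ± 0.255 did not pass (adjusted p = 0.27). Per1 ranged from 13.7 to 29.9 CPM with STM2457 and from 17.6 to 38.1 CPM with DMSO, wider within an arm than between arms. Cry1, Cry2, Per3 and Nr1d2 overlapped between arms, though Cry2 was lower in each pair (−0.24, −0.05 and −0.43) and Nr1d2 higher (0.11, 0.38 and 0.14). The fibroblast markers in XEN summed to 5.10 to 8.68 CPM with STM2457 and 5.00 to 8.42 CPM with DMSO. Nearly all of that sum was Pdgfrb, at a mean of 6.26 CPM with STM2457 and 6.52 CPM with DMSO.

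**Figure D4:**
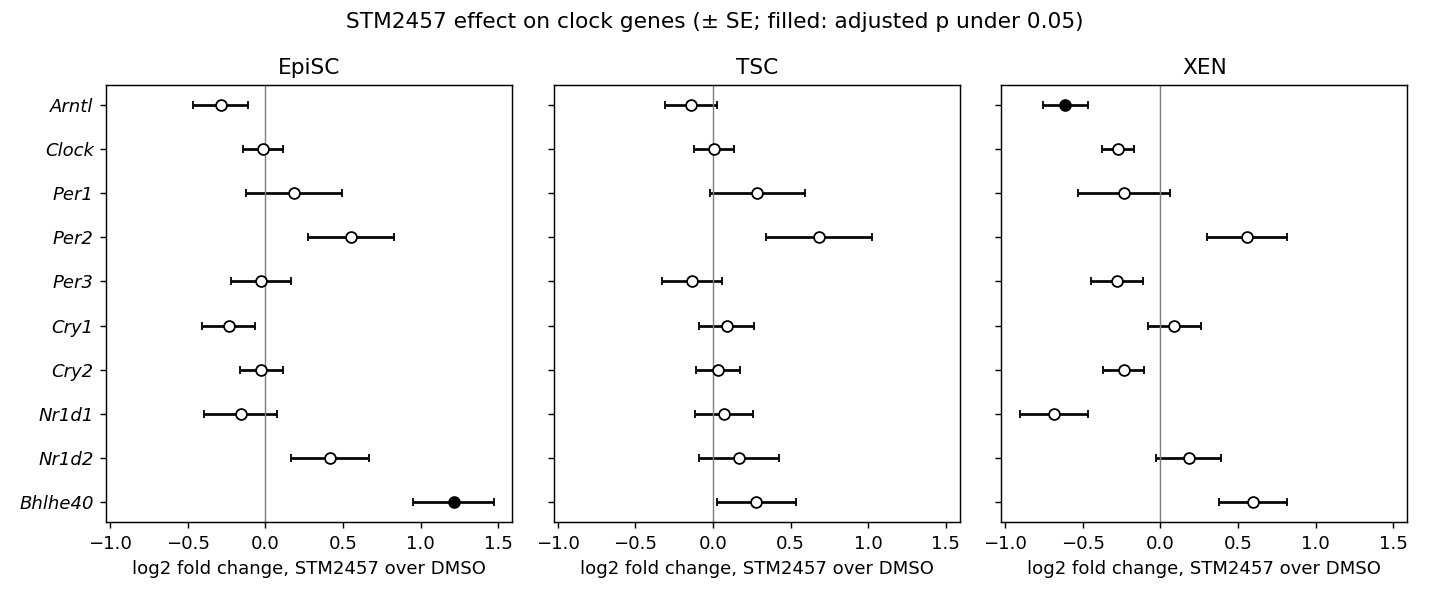
Log2 fold change of STM2457 over DMSO with its SE in each line, from the fit over all 14 libraries. Filled points mark an adjusted p under 0.05: Bhlhe40 in EpiSC at 1.21 and Arntl in XEN at −0.61.

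The mean effect over the 3 lines averages their log2 fold changes and does not test whether each line changed. It combined 1.21 in EpiSC, 0.28 in TSC and 0.59 in XEN for Bhlhe40, and −0.29, −0.14 and −0.61 for Arntl. Bhlhe40 rose by 0.70 ± 0.141 (adjusted p = 0.0070), Per2 rose by 0.60 ± 0.170 (adjusted p = 0.027), and Arntl fell by 0.35 ± 0.0944 on the log2 scale (adjusted p = 0.021). These are 3 of 10 genes, where 13.4% of all tested genes were called. Per2 had similar sizes in EpiSC (0.55), TSC (0.68) and XEN (0.56), passing in none of them alone. In TSC its arms overlapped, at 1.94 and 2.79 CPM with STM2457, against 2.04 and 0.904 CPM with DMSO. Arntl was the one gene of the 10 whose arms did not overlap in any line, each time lower with STM2457, as were 2.89% of all tested genes, while 4.7% were higher in the same way. With the block Nr1d2 also rose in the mean (0.26, adjusted p = 0.00254). The Bhlhe40 call held in all 20 alternatives. Those of Per2 and Arntl were lost in 6 and 8, among them leaving out single EpiSC and TSC libraries (adjusted p = 0.0532 to 0.146 for Per2 and 0.0505 to 0.0777 for Arntl).

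Whether the STM2457 effect differed between lines was tested by interaction. In edgeR 0 of the 10 genes were called for TSC minus XEN (0.00543% of all genes), EpiSC minus XEN (0.0109%) or EpiSC minus TSC (0.00543%). At an unadjusted p under 0.05 the counts were 2, 0 and 1 (4.94%, 6.08% and 4.31% of all genes), and DESeq2 called 0 in each (0.227%, 0.372% and 0.172% of all genes). The effect on Bhlhe40 was larger in EpiSC than in TSC by 0.93 ± 0.362 (adjusted p = 1.00). With the replicate block that difference had an adjusted p of 0.00078, and that from XEN, 0.59, one of 0.033. The block called 0.602% and 0.971% of all genes in these tests, and the block in XEN only 1.49% and 2.18%. So the larger EpiSC response of Bhlhe40 was called or not depending on how the spread was modelled. Nr1d1 differed between TSC and XEN by 0.76 ± 0.289 (adjusted p = 0.95).

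Of 20 further clock-linked genes 19 were tested, all but Rorb. Those called were all higher with STM2457: 0 in XEN, 1 in TSC, 2 in EpiSC and 3 in the mean. Over all tested genes 4.15%, 0.966%, 1.68% and 13.4% were called, in the same order. Most of those calls were also higher, with 154 higher and 24 lower in TSC and 235 and 74 in EpiSC. In XEN, 5 of the 19 had an unadjusted p under 0.05 in edgeR, against 17.3% of all genes. Nfil3, the D-box repressor, stood at 24.8 and 25.5 CPM in TSC with STM2457, against 13.6 and 13.9 CPM with DMSO. That is a 1.83-fold higher level (0.87 ± 0.162, adjusted p = 0.017). In EpiSC it stood at 15.4 and 14.4 CPM with STM2457, against 10.3 and 9.29 CPM with DMSO (0.61, adjusted p = 0.076, or 0.00349 with the block), and in XEN the arms overlapped near 2 CPM.

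Csnk1e, the kinase CK1 epsilon that marks PER proteins for decay, stood at 118 and 115 CPM in EpiSC with STM2457, against 86.3 and 87.3 CPM with DMSO (0.43 ± 0.104, adjusted p = 0.046). Cipc, a repressor that binds CLOCK, stood at 94.2 and 95.6 CPM in EpiSC with STM2457, against 67.8 and 69.8 CPM with DMSO (0.46 ± 0.109, adjusted p = 0.040). Both had every STM2457 library above every DMSO library in all 3 lines, as did 4.7% of all tested genes. As means over the lines, Nfil3 rose by 0.55, Csnk1e by 0.27 and Cipc by 0.33 (adjusted p = 0.0036, 0.0048 and 0.0026), and these calls held in all 20 alternatives. The single-line calls were lost in 6 of 21 alternatives for Nfil3 and in 10 of 21 for Csnk1e and for Cipc.

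Over the 14 libraries, the genes most like Arntl by Pearson correlation of log2 CPM included Sbno1 (0.98) and Cltc (0.98), of 13859 protein-coding genes compared. For Per2 they were Syt14, St7 and Hipk1 (0.96 each), and for Bhlhe40 Zbtb25 (0.94), Cbr1 (0.93) and Lingo1 (0.93). The 14 points fall into 3 lines that differ in many genes and share depth and composition within a line, so these values describe the profiles and carry no test.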

How the data were processed

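Total RNA was sequenced in 14 libraries, with a stranded total RNA kit per the labels. Per the submitters' processing notes, FastQC, Trim Galore, STAR and featureCounts were used on GRCm39, without versions. The authors deposited raw gene counts for each library. Annotation release and strand setting are not given in the sources used here. Gene names and exon lengths came from GENCODE M21 (GRCm38), which named 52135 of 55416 identifiers. Promoters came from RefSeq GRCm38.p6. No coordinates were converted.

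A 6-group model of all libraries was fitted with edgeR 4.0.16 (limma 3.58.1, R 4.3.3): TMM scaling, filterByExpr (minimum count 10, minimum total 15), robust quasi-likelihood test, two-sided, Benjamini-Hochberg adjustment over all tested genes, calls at an adjusted p under 0.05. The script was tested on simulated data. Each SE is the absolute log2 fold change divided by root F. Log2 CPM for the likeness measure had a prior count of 2. Depth per library is given with the results, and its counting error is part of the spread edgeR estimates. Alternatives were DESeq2 1.42.0, RLE factors, ribosomal scaling, no filter, single or paired lines, the replicate number as a block in all lines or in XEN only, and leaving out each library.

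All 10 genes are named. Of 20 other clock genes those called are named, as are genes overlapping a member and the 3 genes most like Arntl, Per2 and Bhlhe40, of which 1 is not reported here. Members and lists were chosen with earlier results of these data known. In XEN the residuals of the same number correlated at 0.22 to 0.38. In TSC and EpiSC they did not (−0.0027 and −0.012).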

Additional observations from a re-analysis of the deposited data

How the results depend on the processing

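Of 11 STM2457 results called, 4 held in every alternative, and of 23 DMSO results 12 did. The 11 include results for Nfil3, Csnk1e and Cipc, which are not members, while the 23 cover members only. Those 4 were the mean effects on Bhlhe40, Nfil3, Csnk1e and Cipc, so Bhlhe40 was the only member among them. Over all genes, the XEN calls were 764 of 18430 in the main fit and 140 with ribosomal scaling. They were 1016 of 31825 without a filter and 25 of 13118 with XEN alone. Ribosomal scaling called 128 of 18430 in EpiSC. For EpiSC minus TSC, no filter called 44 of 31825 and those lines alone 683 of 16140. Shares for DESeq2, the blocks and the single TSC and EpiSC fits are given above. Beside these, member counts moved as follows. In XEN (1 gene called) DESeq2 gave 3, ribosomal scaling 0, no filter 2, XEN alone 0 and either replicate block 4, with 0 to 1 over the libraries left out. In TSC (0) the block gave 1, the block in XEN only 2 and TSC alone 2. In EpiSC (1) ribosomal scaling gave 0, either block 2 and EpiSC alone 4, with 0 to 1 over libraries left out. The mean effect (3) ranged from 1 to 4 over libraries left out. Interaction counts (0) became 1 for EpiSC minus XEN with either block and 1 for EpiSC minus TSC with either block, no filter or those lines alone. EpiSC over TSC in DMSO (7) gave 4 with ribosomal scaling and 3 to 7 over libraries left out. With a library left out of an arm of 2, the lone one is assumed to vary like the other groups.

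Ribosomal scaling moved the median of all genes by 0.12 in EpiSC and 0.11 in TSC for STM2457, and turned these directions: Clock in EpiSC (0.11) and EpiSC over TSC (0.22), Per1 for EpiSC over XEN (−0.24), Per3 in TSC (0.00056), EpiSC (0.11) and EpiSC over TSC (0.050), Cry1 in the mean (0.048) and TSC over XEN (−0.40), Cry2 in EpiSC (0.10), TSC over XEN (−0.81) and EpiSC over XEN (−0.13), Bhlhe40 for TSC over XEN (−0.085) and EpiSC over XEN (−0.57). None of the other turned results was called: over libraries left out, Clock ranged from −0.035 to 0.051 in TSC, −0.12 to 0.086 in EpiSC and −0.18 to 0.032 for EpiSC over TSC, Per1 from −0.52 to 0.15 in XEN and −0.018 to 0.21 in the mean, Per3 from −0.17 to 0.13 in EpiSC, Cry1 from −0.12 to 0.26 in XEN and −0.091 to 0.038 in the mean, Nr1d1 from −0.072 to 0.23 in TSC and −0.36 to 0.065 in EpiSC, Nr1d2 from −0.055 to 0.47 and Nfil3 from −0.012 to 0.32 in XEN. The cause was not tested.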

Other observations

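GGAC is the core of the motif methylated by METTL3. The members' longest protein-coding transcripts held it at a median of 4.56 per kb, against 4.19 over 14320 tested protein-coding genes. The values ran from 1.95 in Clock to 6.21 in Per1. Bhlhe40 shares 118 exon bases, 2.51% of its exon length, with the antisense gene 0610040F04Rik, which stood at 0.914 ± 0.471 CPM in EpiSC with STM2457 and 0.576 ± 0.253 CPM with DMSO. Per3 lies within the span of Camta1 on the same strand but shares no exon base with it. Cry2 shares 295 exon bases with D930015M05Rik, which held 1 count in all libraries, and Arntl shares 33 with Gm45355. Clock overlaps Ube2n-ps1 and Gm43658 on its own strand, with no shared exon base.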
